A study of Mus musculus with 24 samples.

Results

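Gene expression in the mandibular prominence, the tissue block of the first pharyngeal arch from which the lower jaw forms, was compared between embryonic day 10 (E10) and embryonic day 11 (E11) in mice with 1 targeted and 1 intact p63 allele. The compared samples were the 3 embryos titled E10 p63+/- and the 3 titled E11 p63+/-, which are 6 of the 24 arrays of the series, and every gene with a detected probe was compared. The 24 embryos make 8 groups of 3, from 4 stages (E10 to E13) and the genotypes p63+/- and p63-/-. The p63+/- embryos belonged to the strain B6.129S7-Trp63tm2Brd/J, and the p63-/- embryos came from crosses within it. Each array held RNA of 1 unpooled prominence, and the embryos of a group came from 3 litters. All of these embryos carried at least 1 targeted Trp63 allele, so nothing here describes wild-type embryos, and littermates of both genotypes were collected at each stage. Each stage was hybridised on its own slide of 6 arrays, so for every difference between E10 and E11 the stage and the slide cannot be told apart.

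As background, the first arch is filled by neural crest mesenchyme around a core of mesoderm that forms the jaw muscles, and is covered by ectoderm outside and endoderm inside. In this interval the epithelium signals to the crest through endothelin, Fgf, Bmp, Wnt and hedgehog ligands, which set the jaw's axes and prepare the sites of the teeth. The muscle core begins to differentiate, vessels carry primitive red cells from the yolk sac, and RNA-binding proteins of the Lin28 family, which keep embryonic cells in an early state by blocking maturation of the let-7 microRNAs, decline in many tissues. p63 (gene symbol Trp63) is the transcription factor that stratified epithelia need in order to form.

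Expression was measured by bead array intensity, normalized by quantiles and given here on a log2 scale, on which 1 unit is 2-fold; a probe counted as detected where its deposited detection p was under 0.05. Between 43.4% and 45.3% of the 45281 probes were detected on the 6 arrays, and 12698 genes, each by its brightest probe, entered the test. The Trp63 probe read 11.32, 10.80 and 11.05 at E10 and 10.94, 10.87 and 10.82 at E11 in p63+/- embryos and 9.79, 9.28 and 9.06 at E10 and 9.87, 9.89 and 9.03 at E11 in p63-/- embryos, and where it lies relative to the targeted part was not examined. Pairs of arrays of the same stage correlated at 0.9889 to 0.9938 across genes (6 pairs) and pairs of different stages at 0.9822 to 0.9889 (9 pairs). All 8 markers of the mandibular arch that were checked (Dlx5, Dlx6, Hand1, Hand2, Msx1, Barx1, Prrx1 and Alx4) were detected on all 6 arrays, with Msx1 between 12.67 and 13 and Barx1 between 11.78 and 12.24 on the log2 scale. Of the Hox genes of the second and more caudal arches, Hoxa3 was detected on 1 of 6 arrays, Hoxa2 on 3 and Hoxb2 on 6, none above 6.78. By Xist and Eif2s3y, 1 of 3 embryos was male at E10 and 2 of 3 at E11. E11 replicate 2 stood apart in transcripts of tissue outside the arch. The mean level of 19 yolk sac genes was 7.80 on it, with 17 detected, against 6.04 and 6.57 on the other E11 arrays and 6.30 to 6.70 at E10. Afp, a yolk sac transcript, read 4.84, 9.56 and 6.89 over the 3 E11 arrays, against 4.94, 5.58 and 6.00 at E10. Prl8a2, a prolactin-family gene of the maternal decidua named after its values were seen, read 6.13, 10.99 and 5.85 at E11 and 6.28, 5.14 and 6.28 at E10. The part of such tissue in the results was not tested.

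From E10 to E11, 98 genes rose and 83 fell, together 181 of 12698 genes (percent called 1.43; 0.772 higher, 0.654 lower) at an adjusted p under 0.05 by limma's moderated test with Benjamini-Hochberg adjustment over all genes. The difference was at least 2-fold for 32 of the genes that rose and 24 of those that fell. Among the highest rises were those of the transcriptional repressor Hic1, the muscle actin Actc1 and the basal keratin Krt15, and the steepest falls were those of kappa-casein (Csn3) and the RNA-binding protein Lin28a. The median difference over all genes was 0.0048, and the median size was 0.155 over all genes and 0.828 over the called ones. All 181 called genes had 3 E10 values that did not overlap the 3 E11 values, which was also true of 3922 genes in all (30.9%). At an unadjusted p under 0.05 there were 2192 genes (17.3%).

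**Figure D1:**
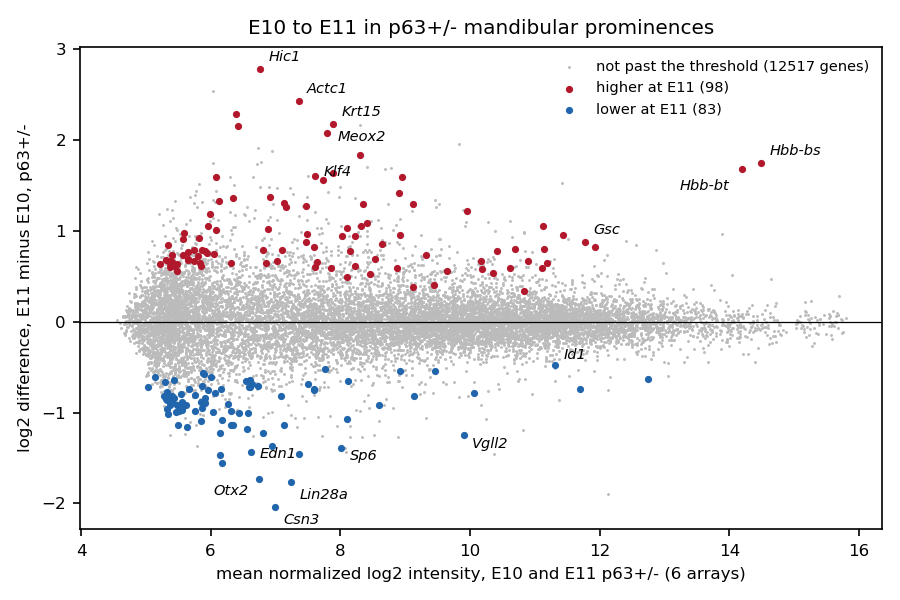
Difference between E11 and E10 in p63+/- embryos (y axis, log2) against the mean normalized log2 intensity of the 6 arrays (x axis), 1 point per gene, with the 98 genes that rose in red, the 83 that fell in blue and all others in grey. Hic1, Actc1 and Krt15 lie highest among the labelled genes and Csn3 and Lin28a lowest, while the adult beta-globins Hbb-bs and Hbb-bt stand alone at the bright end.

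The balance of directions depended on the scaling. With quantile normalization 54.1% of the calls were higher, and with each array scaled to its median 5.76% of 3387 calls were higher; this scaling moved the median of all genes to -0.22. Relative to that shift, 3 of the gene lists described below had a median on the other side of the median of all genes (primitive globins, crest and Schwann lineage, hindbrain and forebrain). The genes named below that passed the threshold kept their sign under both. How many genes passed depended on single arrays. Without E10 replicate 1, 2 or 3 there were 26, 31 and 157 calls, and without E11 replicate 1, 2 or 3 there were 56, 314 and 22. E11 replicate 2 was the E11 array nearest to the E10 values for 110 of the 181 called genes (60.8%), and E10 replicate 3 was the E10 array nearest to the E11 values for 112 (61.9%). Among all genes with an unadjusted p under 0.05 these shares were 54.9% and 57.4%. The E10 p63-/- group, which entered the shared estimate of the spread, also held an array that stood apart (replicate 3), and without it there were 369 calls that included all 181.

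Among the called genes detected on all 6 arrays, with unnamed and sex-linked symbols left out, Lin28a fell most. It read 8.36, 8.39 and 7.61 on the E10 arrays and 6.22, 6.73 and 6.12 on the E11 arrays, so every E11 array lay below every E10 array, with E10 replicate 3 and E11 replicate 2 nearest to each other. The difference was -1.76 (SE 0.26, adjusted p = 0.00385), a 3.4-fold fall, from 8.12 ± 0.44 to 6.36 ± 0.32 (SD, n = 3). Its second detected probe differed by -2.08. The call held in each run that left out 1 array, with a highest adjusted p of 0.0328. Its paralog Lin28b read 9.69, 9.74 and 9.15 at E10 and 8.13, 8.99 and 7.64 at E11, a difference of -1.27 (SE 0.35, adjusted p = 0.0681) that did not pass. Neither did Sall4, a zinc-finger factor of early embryonic cells, which read 11.18, 11.21 and 10.90 at E10 and 9.48, 10.40 and 9.05 at E11, a difference of -1.45 (SE 0.42, adjusted p = 0.081). Trim71, a ubiquitin ligase that let-7 represses, differed by -1.09 (SE 0.45, adjusted p = 0.212). In all 3 genes E11 replicate 2 had the highest E11 value. Lin28b differed by -1.64 (adjusted p = 0.0203) without E11 replicate 2 and -0.97 (adjusted p = 0.308) without E11 replicate 3, Sall4 by -1.83 (adjusted p = 0.0344) without E11 replicate 2 and -1.16 (adjusted p = 0.328) without E11 replicate 3 and Trim71 by -1.34 (adjusted p = 0.169) without E11 replicate 2 and -0.85 (adjusted p = 0.558) without E11 replicate 3. Of 15 measured genes of a list around Lin28 and let-7, 1 fell (Lin28a), 0 rose and 13 had a negative difference, with a median of -0.41 beside 0.005 for all genes. Without E11 replicate 2, 4 fell (Lin28a, Lin28b, Sall4 and Prtg) and 1 rose (Zfp462), and without E11 replicate 3 only Lin28a fell.

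Igdcc3, a cell-surface protein of the immunoglobulin superfamily that is named after its values were seen, had an uncalled difference of similar size at a much higher level. It read 13.20, 13.23 and 12.81 on the E10 arrays and 10.97, 12.19 and 10.39 on the E11 arrays. The groups did not overlap, but the E11 arrays spread over almost as wide a range as the step itself, and the difference of -1.89 (SE 0.56, adjusted p = 0.0845) did not pass. It was -2.40 (adjusted p = 0.0357) without E11 replicate 2 and -1.50 (adjusted p = 0.34) without E11 replicate 3.

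Edn1, which encodes endothelin 1, the epithelial ligand that gives the arch its lower-jaw identity, fell. It read 7.44, 7.32 and 7.23 on the E10 arrays and 5.49, 5.95 and 6.27 on the E11 arrays, where it was detected on 2 of 3 arrays. The fall was at least 2.58-fold, with a fitted difference of -1.43 (SE 0.23, adjusted p = 0.00736), and it remained called in each run that left out 1 array (highest adjusted p = 0.0472). Gsc, a homeobox factor of the arch mesenchyme that normal jaw and ear development needs, rose. Its values were 11.15, 11.14 and 11.72 at E10 and 12.21, 12.00 and 12.43 at E11, a rise of 1.84-fold from an already high level, with a difference of 0.88 (SE 0.21, adjusted p = 0.0407). Hand1, a factor of the ventral arch midline, read 8.24, 7.84 and 7.81 at E10 and 6.67, 7.60 and 6.45 at E11, a difference of -1.05 (SE 0.35, adjusted p = 0.126). E11 replicate 2 again had the value nearest to E10, and Hand1 differed by -1.40 (adjusted p = 0.048) without E11 replicate 2 and -0.83 (adjusted p = 0.426) without E11 replicate 3. Of 18 measured mandibular patterning genes, 1 rose (Gsc), 1 fell (Edn1) and 16 did not pass, with a median of -0.09. For Gsc the adjusted p without E11 replicate 3 was 0.211.

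Otx2, a factor of the rostral head, read 7.73, 7.98 and 7.13 on the E10 arrays and 5.79, 5.93 and 5.94 on the E11 arrays, with the 3 E11 values close together. It fell 3.31-fold, a log2 difference of -1.73 (SE 0.35, adjusted p = 0.0196). Emx1, a forebrain factor, read 6.07, 5.55 and 5.94 at E10 and 4.67, 5.08 and 4.75 at E11, with detection on 2 of 3 E10 arrays and on no E11 array, and fell at least 1.18-fold (log2 difference -1.02, SE 0.16, adjusted p = 0.00736). These were the only called members of a list of 8 measured hindbrain and forebrain genes, whose median was -0.19. Meox2, a factor of somites and limb muscle, rose 4.22-fold, by 2.08 (SE 0.40, adjusted p = 0.0167). It read 6.54, 6.54 and 7.19 at E10 and 9.11, 7.97 and 9.42 at E11, again with E11 replicate 2 lowest. It was the only one of 10 measured limb and trunk genes that passed (median 0.49), and 3 passed without E11 replicate 2 (Tbx4, Meox1 and Meox2) but 0 without E11 replicate 3. Vgll2, a cofactor of TEAD proteins that is strong in the arches and in muscle, read 10.87, 10.50 and 10.20 at E10 and 9.27, 9.55 and 9.02 at E11 and fell 2.37-fold, a log2 difference of -1.25 (SE 0.25, adjusted p = 0.019). Cdx1, a caudal homeobox factor near background, was detected on all 3 E10 arrays and on no E11 array, a fall of at least 1.55-fold (log2 difference -0.98, SE 0.21, adjusted p = 0.0242). The highest adjusted p with 1 array left out was 0.0955 for Otx2 without E10 replicate 2, 0.11 for Meox2 without E11 replicate 3 and 0.116 for Vgll2 without E10 replicate 1; it was 0.0472 for Emx1, which remained called in all of these runs. For Cdx1 it was 0.106 without E11 replicate 1.

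Among genes known from epithelia, measured here in whole prominences, the basal keratin Krt15 rose. It read 6.93, 6.22 and 7.25 on the E10 arrays and 9.38, 7.72 and 9.83 on the E11 arrays, with wide spread at E11, where replicate 2 lay nearest to E10. The rise was 4.52-fold, a difference of 2.18 (SE 0.42, adjusted p = 0.0159). Klf4, a zinc-finger factor that the epidermal barrier needs, read 6.85, 6.61 and 6.96 at E10 and 8.66, 7.65 and 8.94 at E11 and rose 3.05-fold, by 1.61 (SE 0.28, adjusted p = 0.0122); its other detected probes differed by 0.87 and 1.57. Klf4 was listed with immediate early and heat shock genes, of which 19 were measured and only Klf4 passed (median 0.22). Gjb6, which encodes connexin 30, rose from 8.15 ± 0.72 to 9.75 ± 0.59 (SD, n = 3), by 1.60 (SE 0.34, adjusted p = 0.0242). Col17a1, the collagen of hemidesmosomes, read 8.19, 5.75 and 8.39 at E11 and 6.10, 5.54 and 5.91 at E10. Its difference of 1.59 (SE 0.53, adjusted p = 0.122) did not pass, and it was 2.44 (adjusted p = 0.00447) without E11 replicate 2 and 1.12 (adjusted p = 0.457) without E11 replicate 3. Of 22 measured genes of basal and stratified epithelium, 1 rose (Krt15) and 0 fell, with a median of 0.21, and 3 rose without E11 replicate 2 (Krt15, Col17a1 and Zfp750) but 0 without E11 replicate 3.

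Sp6, a zinc-finger factor of the dental epithelium that enamel formation needs, fell. Its values were 9.01, 8.70 and 8.41 at E10 and 7.42, 7.60 and 6.94 at E11, without overlap, and its difference was -1.39 (SE 0.27, adjusted p = 0.0159), a 2.62-fold fall; a second probe gave -1.20. Fst, which encodes the activin inhibitor follistatin, was detected on no E10 array and on all 3 E11 arrays. It read 5.35, 5.07 and 5.44 at E10 and 7.21, 6.31 and 7.13 at E11, a rise of at least 2.43-fold (log2 difference 1.60, SE 0.29, adjusted p = 0.0126). Sp6 and Fst were the only called members of 19 measured oral and odontogenic genes (median -0.30). Other signals of the oral ectoderm did not pass. Fgf8, which read 11.09, 10.68 and 10.58 at E10 and 9.71, 10.17 and 9.28 at E11, differed by -1.06 (SE 0.42, adjusted p = 0.195), and Shh differed by -0.69 (SE 0.49, adjusted p = 0.49). Dkk4, a secreted Wnt inhibitor of epithelial placodes, read 8.07, 7.54 and 7.87 at E10 and 6.42, 7.73 and 6.17 at E11, a difference of -1.05 (SE 0.36, adjusted p = 0.129) that was -1.53 (adjusted p = 0.0176) without E11 replicate 2 and -0.75 (adjusted p = 0.469) without E11 replicate 3.

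None of 22 measured genes of a general epithelium list passed, beside 1.43% of all genes. The list holds cadherins, splicing and transcription factors and keratins of epithelia. Of these 22 genes 21 had a negative difference, 10 with an unadjusted p under 0.05, and the median was -0.39. Over all genes 17.3% had such a p in either direction, and the median was 0.005. Krt18, a keratin of simple epithelium, read 10.77, 10.67 and 10.45 at E10 and 9.56, 10.06 and 9.52 at E11, a difference of -0.92 (SE 0.26, adjusted p = 0.0801). Its partner keratins Krt8 and Krt7 differed by -0.86 (SE 0.27, adjusted p = 0.106) and -0.92 (SE 0.26, adjusted p = 0.0802), and Krt7 differed by -1.14 (adjusted p = 0.0363) without E11 replicate 2 and -0.69 (adjusted p = 0.34) without E11 replicate 3. Lsr, Tjp3 and Arvcf were in none of the lists and are named after their values were seen. Lsr, a receptor of tricellular junctions, fell by 0.75 (SE 0.16, adjusted p = 0.0242) on the log2 scale and the tight-junction scaffold Tjp3 by at least 1.92-fold (SE of the log2 difference 0.22, adjusted p = 0.0287). Arvcf, a catenin that binds cadherins, read 6.45, 6.50 and 6.41 at E10 and 5.58, 5.71 and 5.73 at E11, a fall of at least 1.68-fold (log2 difference -0.78, SE 0.17, adjusted p = 0.0309). Baiap2l1, an adaptor between membrane and actin in epithelial cells, fell by 1.13 (SE 0.21, adjusted p = 0.0142) on the log2 scale, and its 3 E10 values lay between 7.66 and 7.73. In whole prominences, fewer cells of a type and less RNA per cell cannot be told apart.

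Without E11 replicate 3 the adjusted p was 0.107 for Krt15, 0.0816 for Klf4, 0.149 for Gjb6, 0.104 for Sp6, 0.0817 for Fst, 0.16 for Lsr and 0.101 for Baiap2l1, so none of these genes passed. For Tjp3 and Arvcf the highest values were 0.131 without E10 replicate 2 and 0.117 without E10 replicate 1. With E11 replicate 3 left out the log2 differences of Krt15 and Klf4 were 1.75 and 1.35.

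**Figure D2:**
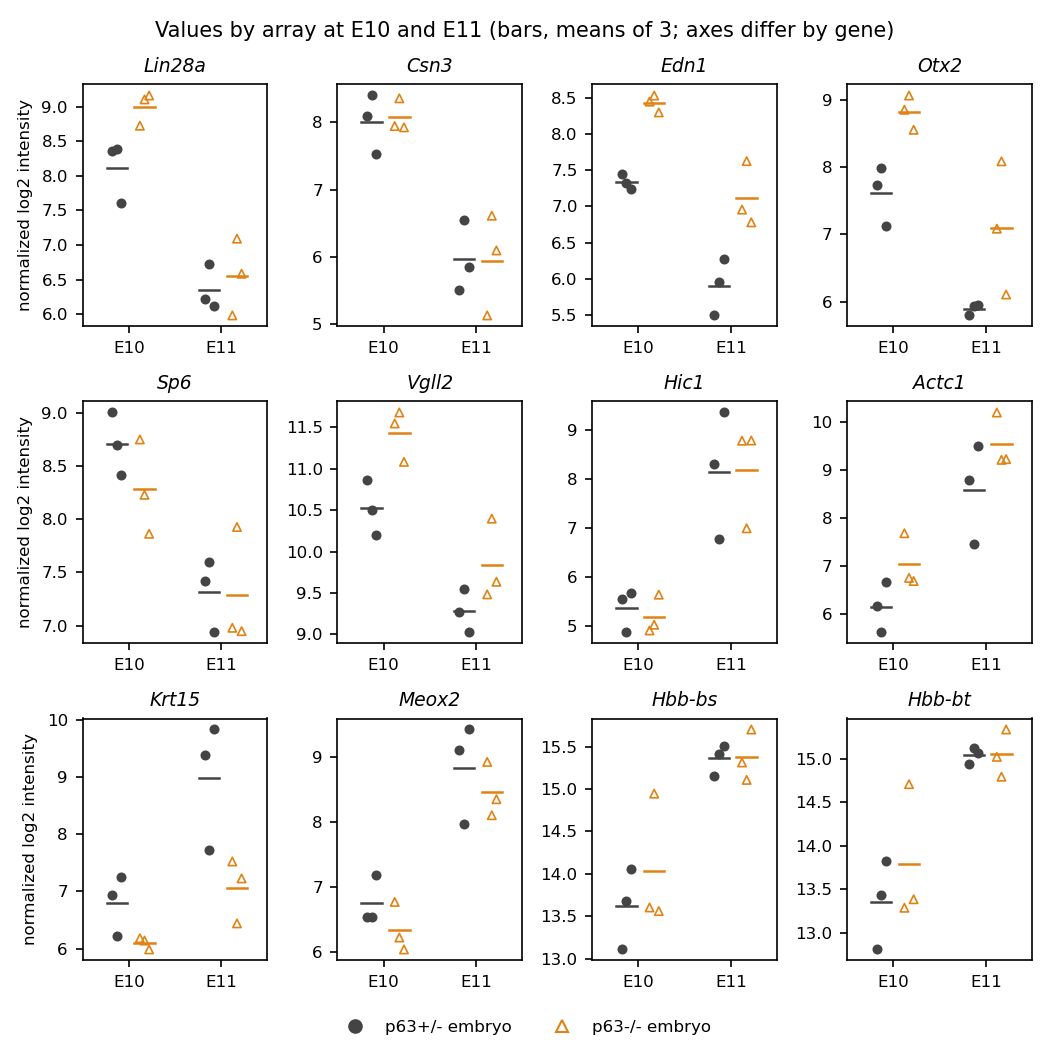
Normalized log2 intensity (y axis) of 12 genes on each array at E10 and E11, with filled circles for p63+/- embryos, open triangles for p63-/- embryos and bars for the means of 3; the y axes differ by gene and do not start at 0. In all 12 genes the 3 p63+/- values of E11 lie apart from those of E10, and in Hic1, Krt15 and Meox2 the E11 embryo nearest to E10 is replicate 2.

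Of the adult beta-globin genes, Hbb-bs and Hbb-bt rose, with every E11 array above every E10 array. Hbb-b2, a further adult beta-globin entry, was measured and did not pass. Hbb-bs read 13.11, 13.68 and 14.06 on the E10 arrays and 15.15, 15.42 and 15.51 on the E11 arrays, a difference of 1.74 (SE 0.34, adjusted p = 0.0159), and its other 5 probes differed by 1.63 to 2.05. Hbb-bt read 12.81, 13.44 and 13.82 at E10 and 14.94, 15.12 and 15.06 at E11, a difference of 1.68 (SE 0.33, adjusted p = 0.0176), and its other 3 probes differed by 1.41 to 1.84. The deposited linear intensities of Hbb-bs were 11118, 15303 and 18373 at E10 and 34669, 38138 and 40030 at E11, in ascending order. These genes are near-identical copies, so how much of either signal came from the other was not tested. Of 19 measured erythroid genes 2 rose (these 2), 18 had a positive difference, 12 with an unadjusted p under 0.05, and the median was 0.82, the highest of the 40 lists. Such a p was found in 17.3% of all genes, in either direction, and their median was 0.005. The summed signal of the list was 79620 to 112900 at E10 and 169600 to 198500 at E11. The amount of blood in each prominence was not measured apart from these transcripts.

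The embryonic globins could not be compared in the same way. Hbb-y, Hbb-bh1 and Hba-x of primitive red cells all had lower deposited intensities at E11, without overlap. Hbb-y lay at 55746 to 59937 at E10 and 46103 to 52599 at E11. Hbb-bh1 lay at 57854 to 61258 and 41798 to 49197, and Hba-x at 54190 to 55010 and 42001 to 47501. The brightest probe of an array lay between 61615 and 64981 at E10 and between 53741 and 56517 at E11, so these probes sat near the top of the scale at both stages. After quantile normalization their differences were 0.07 for Hbb-y, -0.06 for Hbb-bh1 and 0.06 for Hba-x, and 0 of 3 passed. Hba-a1, an alpha-globin of both embryonic and adult red cells, read 15.46, 15.58 and 15.60 at E10 and 15.81, 15.84 and 15.84 at E11 and was likewise near the top, with a difference of 0.29 (SE 0.09, adjusted p = 0.101). Without E11 replicate 3 the adjusted p of Hbb-bs was 0.0986, and without E10 replicate 1 that of Hbb-bt was 0.11.

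The promoters of Hbb-bs, Hbb-bt and Hbb-y on chromosome 7 are shown. Hbb-bs and Hbb-bt rose together, while the embryonic Hbb-y was already at the top of the scale. The windows (RefSeq, GRCm38.p6, minus strand, 5′ to 3′) run from 250 bases before to 50 after the start. Capitals mark CACCC and CCAAT on either strand. The window of Hbb-bs is chr7:103827879-103828178, Hbb-bt chr7:103813874-103814173 and Hbb-y chr7:103853158-103853457.
Hbb-bs: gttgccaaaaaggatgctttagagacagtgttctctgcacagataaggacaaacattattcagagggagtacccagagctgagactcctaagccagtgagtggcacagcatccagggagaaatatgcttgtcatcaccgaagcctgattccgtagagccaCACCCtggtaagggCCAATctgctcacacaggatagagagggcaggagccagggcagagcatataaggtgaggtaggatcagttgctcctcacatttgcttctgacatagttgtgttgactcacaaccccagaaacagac
Hbb-bt: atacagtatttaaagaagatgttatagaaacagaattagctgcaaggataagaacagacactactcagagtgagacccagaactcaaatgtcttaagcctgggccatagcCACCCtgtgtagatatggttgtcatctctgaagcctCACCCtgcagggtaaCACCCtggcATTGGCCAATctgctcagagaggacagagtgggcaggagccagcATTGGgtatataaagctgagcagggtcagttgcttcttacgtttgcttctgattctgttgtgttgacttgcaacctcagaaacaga
Hbb-y: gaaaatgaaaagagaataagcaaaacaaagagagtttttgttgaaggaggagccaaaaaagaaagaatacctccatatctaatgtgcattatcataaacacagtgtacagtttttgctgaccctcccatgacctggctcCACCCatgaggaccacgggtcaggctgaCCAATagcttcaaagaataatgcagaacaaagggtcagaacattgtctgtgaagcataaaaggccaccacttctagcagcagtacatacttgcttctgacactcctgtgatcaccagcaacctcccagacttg

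All 3 windows held CACCC and CCAAT, which are known elements of beta-globin promoters. Hbb-bs and Hbb-y had 1 match of each, and Hbb-bt had 3 of each, 2 of its CCAAT matches lying side by side on opposite strands. The first CACCC base nearest to the start lay at -90 in Hbb-bs, -89 in Hbb-bt and -111 in Hbb-y. Of the 32851 windows of this length in the table, 57.5% held CACCC, 37.4% CCAAT and 20.9% both, so the letters are common and the embryonic gene has them too.

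Among muscle genes Actc1 rose. Actc1, the cardiac actin that is also the main actin of embryonic skeletal muscle, was detected on 2 of 3 E10 arrays and on all E11 arrays. It read 6.16, 5.62 and 6.66 on the E10 arrays and 8.80, 7.45 and 9.48 on the E11 arrays, a rise of at least 5.29-fold, with a fitted difference of 2.43 (SE 0.54, adjusted p = 0.0309). Replicate 2 was again the lowest E11 array, and the groups did not overlap. A second probe differed by 1.01. Actc1 was the only one of 25 measured sarcomere and excitation genes that passed, and 20 had a positive difference, with a median of 0.36 that ran from 0.17 to 0.52 when single arrays were left out. Myl1, a myosin light chain of fast muscle, read 6.76, 6.23 and 7.11 at E10 and 8.40, 6.95 and 9.56 at E11, a difference of 1.61 (SE 0.67, adjusted p = 0.219). Regulators of the muscle lineage missed the threshold. Myod1, the muscle determination factor, was detected on no E10 array and on 2 of 3 E11 arrays, at 6.67, 5.51 and 7.21, a difference of 1.40 (SE 0.35, adjusted p = 0.0511). Msc, a basic helix-loop-helix factor of the arch muscle lineage, read 8.04, 8.02 and 8.93 at E10 and 9.54, 8.86 and 9.77 at E11, a difference of 1.06 (SE 0.28, adjusted p = 0.0605). Myod1 differed by 1.88 (adjusted p = 0.00447) without E11 replicate 2 and 1.03 (adjusted p = 0.249) without E11 replicate 3, and Msc by 1.32 (adjusted p = 0.0247) without E11 replicate 2 and 0.87 (adjusted p = 0.275) without E11 replicate 3. The adjusted p of Actc1 without E11 replicate 3 was 0.191.

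The Actc1 promoter is shown because it was the one sarcomere gene that rose, with its CArG box, the site known to bind serum response factor, in capitals (RefSeq, GRCm38.p6, chr2:114052826-114053125, minus strand, 5′ to 3′).
Actc1: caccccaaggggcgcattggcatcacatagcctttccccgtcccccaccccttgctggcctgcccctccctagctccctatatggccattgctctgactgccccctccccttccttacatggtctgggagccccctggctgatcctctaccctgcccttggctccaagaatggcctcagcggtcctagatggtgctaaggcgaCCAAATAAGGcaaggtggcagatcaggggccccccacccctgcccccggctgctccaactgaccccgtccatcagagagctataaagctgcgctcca

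The window held 1 CArG box, whose first base lay at -47 from the annotated start, and 1.63% of the 32851 windows held at least 1. The letters TATAAA lay after that start, near the end of the window, so the -47 rests on the annotation. The match describes the letters of the window and says nothing of binding at either stage.

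None of 34 crest mesenchyme factors, 12 odontogenic mesenchyme genes or 33 collagens and matrix genes passed, beside 1.43% of all genes. The called genes of this paragraph were in none of these lists. Hic1, a transcriptional repressor of connective tissue progenitors that was outside the naming rule because it was detected on only 1 E10 array, read 5.55, 4.87 and 5.67 on the E10 arrays and 8.30, 6.79 and 9.36 on the E11 arrays. It rose at least 5.69-fold, with a fitted difference of 2.79 (SE 0.52, adjusted p = 0.0147), and the E11 embryos themselves lay as far apart as 6.79 and 9.36. Itga11, a collagen-binding integrin of fibroblasts, rose 2.43-fold, from 6.83 ± 0.30 to 8.10 ± 0.52 (SD, n = 3). Thy1, a surface glycoprotein of fibroblasts and neurons, rose 2.95-fold (log2 difference 1.56, SE 0.34, adjusted p = 0.0301) and Bdnf, a neurotrophin, 2.45-fold (log2 difference 1.29, SE 0.24, adjusted p = 0.0138). Bdnf read 7.58, 7.47 and 8.07 at E10 and 9.33, 8.40 and 9.27 at E11. The zinc-finger factor Glis1 rose 2.59-fold, the cell cycle regulator Rgcc 2.45-fold and the calcium channel Cacna1g 2.68-fold (adjusted p 0.0176 to 0.0407 for these and Itga11). Dnm3os, the host transcript of microRNAs of mesenchyme, named after its values were seen, rose by 0.65 (SE 0.16, adjusted p = 0.0425).

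Most matrix genes had a higher mean at E11, and none passed. Of 33 measured collagens and fibrillar matrix genes 29 had a positive difference, 12 with an unadjusted p under 0.05, and the median was 0.33. Among all genes 17.3% had such a p in either direction, with a median of 0.005. With median scaling 21 of the 33 matrix genes were positive. Col1a1, the main collagen of bone and skin, read 7.89, 7.59 and 8.07 at E10 and 9.67, 9.03 and 9.92 at E11, a difference of 1.69 (SE 0.68, adjusted p = 0.201), and Tnc, tenascin C, differed by 1.43 (SE 0.45, adjusted p = 0.106). For Col1a1 the 6 compared arrays did not overlap, and with those 6 arrays alone in the fit it passed. Osr2, a zinc-finger factor that patterns tooth and palate mesenchyme, read 10.88, 9.68 and 11.41 at E10 and 12.36, 11.60 and 12.60 at E11 and missed the threshold, at 1.53 (SE 0.39, adjusted p = 0.0554). Its relative Osr1 differed by 0.79 (SE 0.21, adjusted p = 0.0586) and the crest factor Six2 by 0.95 (SE 0.35, adjusted p = 0.164). Of 34 measured crest mesenchyme factors 26 had a positive difference (median 0.21), 14 with median scaling, and 0 passed. The difference of Osr2 was 1.82 (adjusted p = 0.0313) without E11 replicate 2 and 1.04 (adjusted p = 0.254) without E10 replicate 2, and that of Osr1 was 1.01 (adjusted p = 0.016) without E11 replicate 2 and 0.65 (adjusted p = 0.26) without E11 replicate 3.

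Single genes of cartilage and of mural cells fell. Col9a3, a chain of cartilage collagen IX, read 7.00, 7.29 and 6.54 at E10 and 5.90, 6.25 and 5.65 at E11 and fell 2.01-fold (log2 difference -1.01, SE 0.20, adjusted p = 0.0167), alone among 19 measured chondrogenic genes (median -0.07). Sox13, a relative of the cartilage factors Sox5 and Sox6, fell by 0.91 (SE 0.19, adjusted p = 0.0201) on the log2 scale. Rgs5, a marker of pericytes, was detected on 1 of 3 E11 arrays and fell at least 1.84-fold (log2 difference -1.23, SE 0.29, adjusted p = 0.042). Its E11 value was highest in replicate 2, at 4.94, 6.35 and 5.30. Acta2, the smooth-muscle actin of the same list of 8 mural genes (median 0.10) and named after its values were seen, read 8.90, 8.65 and 9.00 at E10 and 11.12, 9.58 and 11.72 at E11. Its difference of 1.96 (SE 0.54, adjusted p = 0.0698) did not pass, and it was 2.57 (adjusted p = 0.0169) without E11 replicate 2 and 1.50 (adjusted p = 0.311) without E11 replicate 3. Without E11 replicate 3 the adjusted p was 0.225 for Itga11, 0.171 for Thy1, 0.0941 for Bdnf, 0.17 for Glis1, 0.101 for Rgcc, 0.117 for Cacna1g, 0.101 for Hic1, 0.227 for Dnm3os, 0.11 for Col9a3 and 0.209 for Rgs5. For Sox13 it was 0.11 without E10 replicate 2.

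Of all genes 1.43% passed, and the signalling lists are given beside that share. In the Bmp pathway, the secreted modulator Bmper rose and the target Id1 fell, 1 and 1 of 16 measured (median -0.19). Bmper read 7.25, 6.15 and 7.82 at E10 and 9.07, 8.60 and 8.47 at E11 and rose 3.11-fold (log2 difference 1.64, SE 0.41, adjusted p = 0.0498), just inside the threshold. It passed in 4 of 13 alternatives and in 2 of 7 runs that left out 1 array. Id1, an inhibitor of basic helix-loop-helix factors, read 11.54, 11.67 and 11.45 at E10 and 11.09, 11.13 and 11.01 at E11, a small fall of 1.39-fold (log2 difference -0.48, SE 0.11, adjusted p = 0.04) with little spread at either stage. Wfikkn1, a secreted inhibitor of the growth factors GDF8 and GDF11, read 7.99, 8.94 and 7.34 at E10 and 6.62, 6.83 and 6.47 at E11 and fell 2.73-fold (log2 difference -1.45, SE 0.31, adjusted p = 0.0264). Of 25 measured Wnt genes 23 had a positive difference, 10 with an unadjusted p under 0.05 (median 0.39), 18 with median scaling, but 0 passed. The share of all genes with such a p was 17.3% in either direction, and their median was 0.005. The Wnt ligand Wnt3a read 5.63, 5.39 and 5.36 at E10 and 7.01, 5.84 and 6.98 at E11, a difference of 1.15 (SE 0.29, adjusted p = 0.0546). Outside the lists and named after their values were seen, the Wnt inhibitor Apcdd1 rose by 1.22 (SE 0.29, adjusted p = 0.0432) and the Wnt co-receptor Lrp6 fell by 0.61 (SE 0.15, adjusted p = 0.0477) on the log2 scale. Pdgfa, an epithelial ligand for crest mesenchyme named in the same way, read 13.32, 12.92 and 12.94 at E10 and 12.41, 12.56 and 12.31 at E11 and fell by 0.63 (SE 0.14, adjusted p = 0.0302) on the log2 scale. The Fgf target Dusp4, a phosphatase of MAP kinases, differed by -0.66 (SE 0.18, adjusted p = 0.0624), and 0 of 20 Fgf genes passed (median -0.05). The retinoic acid synthases Aldh1a2 and Aldh1a3 differed by 1.18 (SE 0.37, adjusted p = 0.102) and 0.94 (SE 0.27, adjusted p = 0.0766). Without E11 replicate 3 the adjusted p was 0.193 for Id1, 0.135 for Wfikkn1, 0.221 for Apcdd1 and 0.164 for Pdgfa, and it was 0.223 for Bmper without E10 replicate 2 and 0.165 for Lrp6 without E10 replicate 1. Wnt3a differed by 1.53 (adjusted p = 0.00617) without E11 replicate 2 and 0.96 (adjusted p = 0.244) without E11 replicate 3, Dusp4 by -0.84 (adjusted p = 0.0225) without E11 replicate 2 and -0.59 (adjusted p = 0.247) without E11 replicate 3 and Aldh1a3 by 1.36 (adjusted p = 0.00342) without E11 replicate 2 and 0.61 (adjusted p = 0.356) without E11 replicate 3.

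Csn3, kappa-casein, a milk protein gene named after its values were seen, had the largest fall of all called genes. It read 8.09, 8.40 and 7.53 on the E10 arrays and 5.50, 6.55 and 5.85 on the E11 arrays, where 2 of 3 arrays detected it, a fall of at least 3.94-fold with a fitted difference of -2.04 (SE 0.30, adjusted p = 0.00385). A second probe differed by -2.43, and the call held without each array in turn (highest adjusted p = 0.0321). Grp, gastrin-releasing peptide, read 7.16, 7.09 and 6.59 at E10 and 5.79, 5.66 and 4.73 at E11, a fall of at least 2.41-fold (log2 difference -1.56, SE 0.28, adjusted p = 0.0122). Tac1, the precursor of substance P, rose. It was detected on 1 of 3 E10 arrays, read 5.06, 4.90 and 5.81 at E10 and 7.67, 6.87 and 8.08 at E11, and rose at least 3.62-fold (log2 difference 2.29, SE 0.43, adjusted p = 0.0158). Cbln4, a secreted synaptic organiser, was high on 2 E11 arrays, with 8.32, 4.73 and 8.86 at E11 against 4.78, 4.70 and 4.81 at E10. It was not detected in E11 replicate 2, and its difference of 2.54 (SE 0.85, adjusted p = 0.126) did not pass. Grp, Tac1 and Cbln4 were also named after their values were seen. Without E11 replicate 3 the adjusted p was 0.0816 for Grp and 0.101 for Tac1, and Cbln4 differed by 3.83 (adjusted p = 0.0077) without E11 replicate 2 and 1.76 (adjusted p = 0.47) without E11 replicate 3.

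The remaining genes set by the naming rule had varied roles. Rtl3, a gene derived from a retrotransposon on the X chromosome, read 7.15, 7.10 and 7.93 at E10 and 9.42, 8.34 and 9.90 at E11 and rose 3.56-fold (log2 difference 1.83, SE 0.36, adjusted p = 0.0176). H2-Q5, a class I histocompatibility gene with near-identical relatives, rose 2.48-fold (log2 difference 1.31, SE 0.31, adjusted p = 0.0388). Among the genes that fell, Hopx, a small homeodomain protein, fell 2.58-fold, the carboxylesterase Ces1d 2.34-fold and the secreted protein Tafa4 2.26-fold (adjusted p 0.0309 to 0.0403). Pawr, an apoptosis regulator, read 8.81, 8.56 and 8.54 at E10 and 7.65, 7.73 and 7.31 at E11 and fell 2.11-fold (log2 difference -1.07, SE 0.18, adjusted p = 0.00991), but its second probe, also detected on every array, differed by 0.11. Aven, an apoptosis inhibitor, read 9.49, 9.60 and 9.57 at E10 and 8.81, 8.69 and 8.71 at E11, with little spread within either group, and fell 1.76-fold (log2 difference -0.81, SE 0.15, adjusted p = 0.0138). The homeobox gene Homez fell 1.76-fold and the kinase Rps6ka3 1.73-fold (adjusted p = 0.0252 and 0.0302). The highest adjusted p was 0.077 for Pawr without E11 replicate 3, and 0.116 for Rtl3, 0.221 for Hopx, 0.169 for Ces1d, 0.0816 for Aven, 0.165 for Homez and 0.165 for Rps6ka3 without the same array. It was 0.168 for H2-Q5 without E10 replicate 1 and 0.142 for Tafa4 without E10 replicate 2. Over the 55 called genes that had another detected probe, 75 of 93 such probes had the same sign as the gene's own, 22 of them past the threshold, and 18 had the opposite sign, 0 past it.

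Genes that crossed the detection limit made up part of the calls. Among the genes that rose, 15 were detected on no E10 array and on all 3 E11 arrays. Besides Fst, the largest bounds were at least 1.6-fold for Psd3, 1.48-fold for Il12a, a subunit of interleukin 12, 1.46-fold for the growth factor Gdf3 and 1.4-fold for the mitochondrial nuclease Mgme1. Among those that fell, 20 were detected on all E10 arrays and on no E11 array. Besides Cdx1, they were led by Bri3bp at 1.71-fold or more, Catsperd of the sperm calcium channel at 1.66-fold, the membrane protein Myof at 1.51-fold and the nicotinic receptor subunit Chrna6 at 1.51-fold. All of these had mean levels under 7 on the log2 scale. Of the 181 called genes, 92 were detected on all 6 arrays. In the runs that left out 1 array, Psd3 and Myof lost their calls to adjusted p values of 0.221 and 0.19, and Catsperd to 0.0565. The others reached 0.0697 for Il12a without E10 replicate 2, 0.139 for Gdf3 without E10 replicate 1, 0.161 for Mgme1 without E10 replicate 1, 0.0877 for Bri3bp without E10 replicate 1 and 0.209 for Chrna6 without E11 replicate 3.

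Lists of other cell types and processes had 0 called genes. Only 1.43% of all genes were called, so 0 calls in lists this short say little about them. Of 24 measured endothelial genes 0 passed (median 0.03), and none of 23 macrophage genes did, although 19 had a positive difference (median 0.41). Among the latter Adgre1, the F4/80 antigen, read 5.62, 6.47 and 6.86 at E10 and 7.91, 7.05 and 7.34 at E11, a difference of 1.12 (SE 0.30, adjusted p = 0.0623), and Lyz2, lysozyme, 6.32, 7.20 and 7.49 at E10 and 9.78, 7.23 and 7.63 at E11, with a difference of 1.21 (SE 0.47, adjusted p = 0.181) that was 0.43 (adjusted p = 0.597) without E11 replicate 1. At an unadjusted p under 0.05, 7 macrophage genes were higher and 1 lower. Without E10 replicate 3, 3 of them passed (Adgre1, Fcrls and Pf4). Without E11 replicate 1 only Ptprc passed, and without E11 replicate 2 only Adgre1. Leaving out E10 replicate 1, E10 replicate 2 or E11 replicate 3 gave 0. For 27 neuron genes the median was 0.06, and for 13 genes of the crest and Schwann lineage it was -0.09. Sox10, the factor of that lineage, read 7.42, 7.18 and 7.08 at E10 and 8.28, 6.53 and 9.09 at E11, a difference of 0.74 (SE 0.45, adjusted p = 0.416) that was 1.46 (adjusted p = 0.0384) without E11 replicate 2 and 0.18 (adjusted p = 0.928) without E11 replicate 3. Cell cycle and replication genes (27 measured, median -0.09), cytosolic ribosomal protein genes (49, median -0.01), p53 targets (15, median -0.05) and Hox genes (16, median 0.08) also had 0 calls. Cdkn1a, a cell cycle inhibitor and p53 target, read 9.75, 9.65 and 9.61 at E10 and 8.93, 9.10 and 8.66 at E11 without overlap, and differed by -0.78 (SE 0.26, adjusted p = 0.129). In hypoxia and glycolysis 15 of 21 genes had a negative difference (median -0.13), 8 with an unadjusted p under 0.05, and 0 passed. For all genes the share with such a p was 17.3% in either direction and the median 0.005. The visceral yolk sac list (19 measured, median 0.34) had 0 calls, and its median ran from -0.13 to 0.80 when single arrays were left out, lowest without E11 replicate 2.

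**Figure D3:**
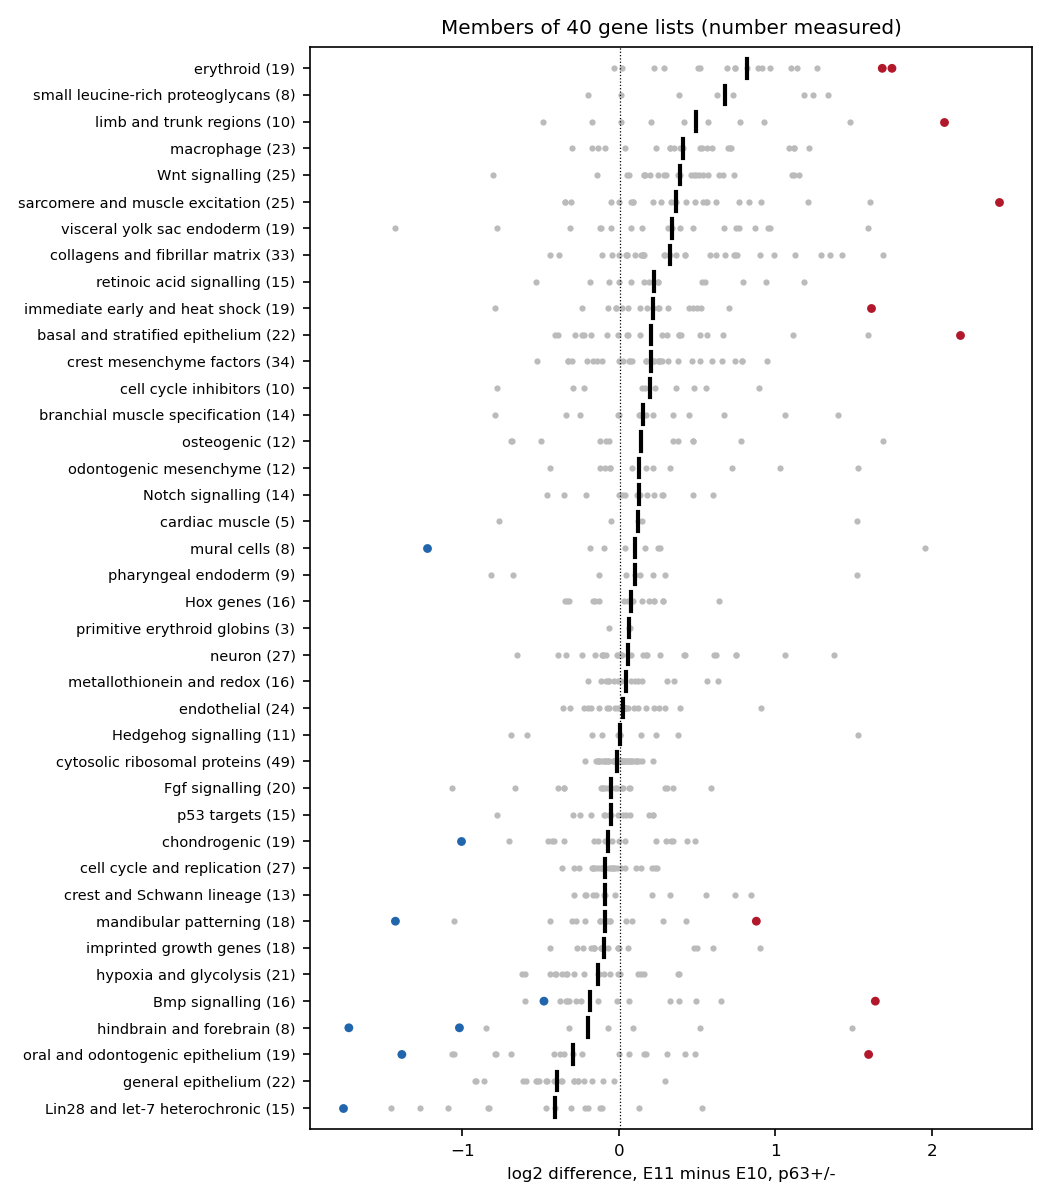
Log2 difference between E11 and E10 in p63+/- embryos (x axis) for each measured member of 40 gene lists (y axis, number measured in brackets), ordered by the list's median (black bar); coloured points passed the threshold, red higher and blue lower, and the dotted line marks the median of all genes. The erythroid list has the highest median, 0.82, and the Lin28 and let-7 list the lowest, -0.41, and most lists have 0 or 1 coloured point.

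The same step was measured in the p63-/- littermates, hybridised on the same pair of slides. There 807 genes passed (percent called 6.36), 533 higher (4.2) and 274 lower (2.16), or 305 and 225 without E10 p63-/- replicate 3. Of the 181 genes called in p63+/- embryos, 94 were called in the same direction in p63-/- embryos, 0 in the opposite direction, and 169 had the same sign, as did 72.2% of all genes. The 94 are 51.9% of the p63+/- calls and 11.6% of the p63-/- calls. Lin28a differed by -2.44 (SE 0.26, adjusted p = 0.000148) in p63-/- embryos, Edn1 by -1.31 (SE 0.23, adjusted p = 0.00406), Csn3 by -2.13 (SE 0.30, adjusted p = 0.000843), Hic1 by 3.00 (SE 0.52, adjusted p = 0.00374) and Actc1 by 2.50 (SE 0.54, adjusted p = 0.0116). Otx2 differed by -1.73 (adjusted p = 0.00838) and Meox2 by 2.11 (adjusted p = 0.00627), close to their p63+/- values of -1.73 and 2.08. Since both genotypes shared the slides, this repeat does not separate stage from slide.

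Whether the step itself differed between genotypes was tested with the interaction of stage and genotype, in which what the slides add to both genotypes cancels. Litter did not enter this test. By limma 0 of 12698 genes passed (percent called 0), and 540 (4.25%) had an unadjusted p under 0.05. The smallest p belonged to Gpr161, a ciliary receptor that restrains hedgehog signalling, which read 4.91, 5.19 and 5.02 at E10 and 5.70, 5.84 and 5.81 at E11 in p63+/- embryos, a rise of at least 1.13-fold (log2 difference 0.74, SE 0.10, adjusted p = 0.00146). In p63-/- embryos it read 5.33, 5.31 and 5.27 at E10 and 5.08, 5.35 and 5.36 at E11, and the interaction was 0.78 (SE 0.14, adjusted p = 0.236). All of these values are near background. Of the 8 genes with the smallest p, 3 had the larger step in p63-/- embryos. Adgrb3, an adhesion receptor of neurons, differed by 0.07 in p63+/- and 1.09 (adjusted p = 0.000347) in p63-/- embryos, Moxd1, a monooxygenase-like protein, by 0.21 and 1.41 (adjusted p = 0.000351), and the metallothionein Mt3, detected on none of the 6 p63+/- arrays, by -0.08 and -1.10 (adjusted p = 0.000524). Their interactions were -1.02 (SE 0.19, adjusted p = 0.267), -1.20 (SE 0.25, adjusted p = 0.267) and 1.02 (SE 0.21, adjusted p = 0.267). Bri3bp, Rad54l2 and H2-T10 fell in p63+/- embryos, with interactions of -1.36 (SE 0.30, adjusted p = 0.3), -1.26 (SE 0.26, adjusted p = 0.267) and -0.95 (SE 0.20, adjusted p = 0.267), and Ly6f rose, with 1.02 (SE 0.20, adjusted p = 0.267). Krt15 rose by 2.18 in p63+/- embryos and differed by 0.96 (adjusted p = 0.172) in p63-/- embryos, and Klf4 by 1.61 and 0.71 (adjusted p = 0.138), but their interactions, 1.22 (SE 0.59, adjusted p = 1) and 0.89 (SE 0.40, adjusted p = 1), did not pass. Without E10 p63-/- replicate 3, 1 gene passed (Rbbp4, adjusted p = 0.00423). In the p63+/- step the highest adjusted p with 1 array left out was 0.0188 for Gpr161, which remained called; it was 0.0833 for Rad54l2 without E10 replicate 1, 0.0709 for H2-T10 without E10 replicate 2 and 0.228 for Ly6f without E11 replicate 3.

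**Figure D4:**
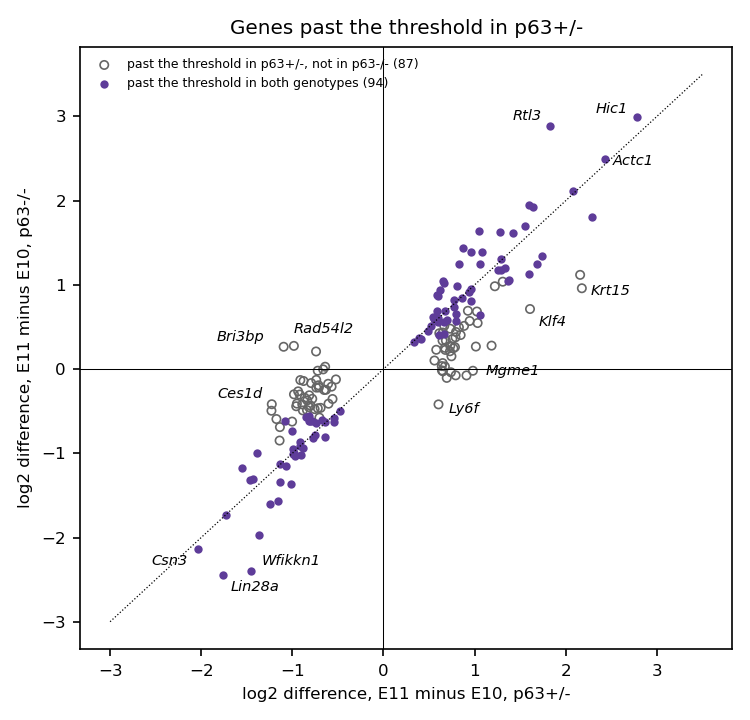
Difference between E11 and E10 in p63-/- embryos (y axis, log2) against that in p63+/- embryos (x axis, log2) for the 181 genes called in p63+/-, with filled points for the 94 also called in p63-/- and open points for the others; the dotted line marks equal differences. Hic1, Actc1, Csn3 and Lin28a lie on the same side of 0 in both genotypes, and Krt15, Klf4 and Ces1d lie nearer to 0 in p63-/- embryos, without a called interaction.

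The later stages of the p63+/- embryos place the E11 values; their steps share the E11 or E12 arrays, so values are given side by side only. Actc1 stood at 11.31 ± 0.70 at E12 and 14.06 ± 0.49 at E13 (SD, n = 3), with differences of 2.43, 2.74 (adjusted p = 0.0078) and 2.75 (adjusted p = 0.00199) over the 3 steps. Hic1 stood at 10.48 ± 0.09 and 11.98 ± 0.02 at the later stages and Krt15 at 10.19 ± 0.52 and 11.66 ± 0.24. Lin28a was near background after E11, at 5.81 ± 0.21 and 5.48 ± 0.22, and its later steps of -0.54 (adjusted p = 0.167) and -0.33 (adjusted p = 0.384) did not pass. Lin28b and Sall4, which missed the threshold from E10 to E11, differed by -1.22 (adjusted p = 0.0343) and -1.63 (adjusted p = 0.023) from E11 to E12. Edn1 was lowest at E11, with 0.42 (adjusted p = 0.234) from E11 to E12 and 0.81 (adjusted p = 0.021) from E12 to E13. Id1, at 11.07 ± 0.06 at E11, stood at 11.15 ± 0.09 and 11.17 ± 0.07. In all, 1277 genes (10.1%) passed from E11 to E12, 667 higher (5.25%) and 610 lower (4.8%), and 2357 (18.6%) from E12 to E13, 1230 higher (9.69%) and 1127 lower (8.88%).

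**Figure D5:**
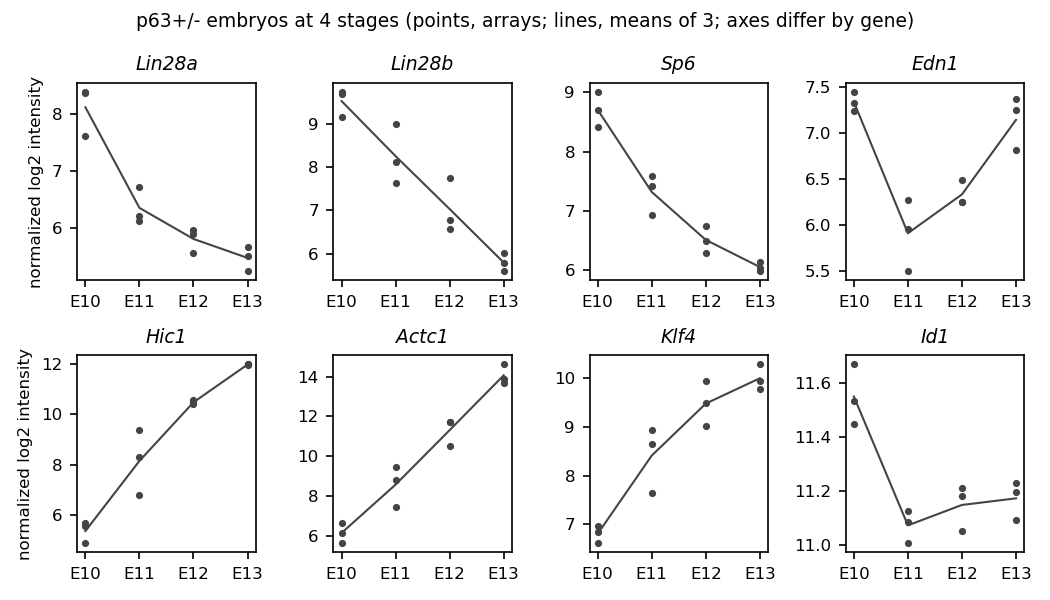
Normalized log2 intensity (y axis) of 8 genes in p63+/- embryos at E10, E11, E12 and E13 (x axis), with points for single arrays and lines through the means of 3; the y axes differ by gene and do not start at 0, and each stage is its own slide. Lin28a reaches most of its fall by E11, Edn1 has its lowest mean at E11, and Hic1 and Actc1 have higher means at each stage than at the one before.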

How the data were processed

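Total RNA of single mandibular prominences was amplified, labelled with biotin and hybridised to Illumina bead arrays, per the labels' protocols. The deposited table holds intensities that were not normalized and a detection p-value for each probe, per the file headers. A second deposited table holds the authors' processed log2 values; the submitters' processing notes name BeadStudio, lumi and RMA, and no versions are given in the sources used here. Its scale, centring and direction were checked only by comparison with the intensities, and it served as an alternative.

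Intensities were background-corrected from the detection p-values with an offset of 16, quantile-normalized and put on the log2 scale (neqc, limma 3.58.1, R 4.3.3). Probes detected at p under 0.05 on at least 3 of 24 arrays were kept (24233 of 45281), and the brightest probe with 1 gene symbol stood for each of 12698 genes. Of all probes, 34885 had 1 symbol, 18 several and 10378 none in the platform annotation. Group means of all 24 arrays were fitted with limma, and p-values were adjusted by Benjamini-Hochberg with a threshold of 0.05. "At least" folds set the brighter group's mean against the lowest detected signal where an array of the dimmer group was below background. On simulated data for this comparison (12698 genes), 43 of 50 genes lowered by 1 log2 unit, 39 of 50 raised by 1, 46 of 50 lowered by 2 and 50 of 50 raised by 2 were called, and 8 of 186 calls were false. The simulated noise was independent between genes and arrays. Shifts that many genes of an array share, as on E11 replicate 2, were not simulated, so these rates do not carry over to the real arrays.

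The samples, the gene lists and the genes named were chosen with earlier results of these data known. Named by rule were the 15 highest and 15 lowest called genes detected on all 6 arrays, the 5 largest bounds each way among genes that crossed the detection limit, the leading members of each list and the smallest interaction p-values; sex-linked and unnamed symbols were left out. Alternatives covered the normalization, offset, filter, probes, arrays in the fit, weights, prior, Xist level, replicate number and each array left out. The array number limits the precision, and an exact permutation test of 3 against 3 cannot go below p = 0.1.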

Additional observations from a re-analysis of the deposited data

How the results depend on the processing

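Depth is not defined for these arrays; signal over background limits genes near the detection limit, and the 6 arrays, 3 per stage on 1 slide each, limit the rest. The counts of genes higher and lower at E11 in p63+/- embryos were 98 and 83, of them 32 and 24 at least 2-fold, with 533 and 274 in p63-/- embryos and 0 interactions. With quantile normalization alone, 14 and 6 changed at least 2-fold. Median scaling gave 195 higher and 3192 lower, 53 and 77 at least 2-fold, and 282 and 2047 in p63-/- embryos; it moved the median of all genes to -0.22, by unequal amounts for different lists, and the cause was not tested. The authors' processed values gave 22 and 33, with 3 and 1 at least 2-fold. An offset of 50 left 12 lower at least 2-fold, the strict filter 50 lower, and all probes gave 170 lower, 42 of them at least 2-fold, and 417 lower in p63-/- embryos. With only the 6 compared arrays there were 42 and 34, 9 and 7 at least 2-fold. Of these 76 calls 36 were among the 181. With the 12 arrays of E10 and E11 there were 6 and 6, 3 and 2 at least 2-fold, and 233 and 80 in p63-/- embryos. Of these 12 p63+/- calls 11 were among the 181. The residual degrees of freedom were 4 with 6 arrays and 8 with 12, against 16 in the main fit. Why the counts differed was not tested. Array weights gave 826 and 748, 111 and 63 at least 2-fold, and 352 higher in p63-/- embryos. Leaving out 1 array gave 4 to 198 higher and 18 to 171 lower, 0 to 86 and 9 to 52 at least 2-fold, 305 to 506 higher and 225 to 268 lower in p63-/- embryos, and 0 to 1 interactions. In median scaling the uncalled Hbb-y, Hba-x, Adgrb3 and Moxd1 had the opposite sign, at -0.192, -0.255, -0.0252 and -0.0131, and with 1 array left out Mt3 ran from -0.147 to 0.0129 and Adgrb3 from -0.00491 to 0.119. With the replicate block there were 121 higher and 107 lower, 228 calls of which 174 were among the 181. Same-numbered p63+/- embryos of E10 and E11 deviated together at r = 0.079, 0.217 and 0.056. Pairs with different numbers did so at -0.147 to 0.083. The main fit did not take the numbers to pair the stages. Whether litter ties embryos of both genotypes within a stage was not checked. Among 63 called genes followed through all alternatives, 0 reversed, 0 remained called in every one, and the call was lost by 54, 55 and 14 without E10 replicate 1, 2 and 3 and by 47, 8 and 55 without E11 replicate 1, 2 and 3. The list counts without single arrays and the list medians under other scalings were chosen after seeing the data.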

Other observations

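The proteoglycans of the extracellular matrix were not described above. Of 8 measured small leucine-rich proteoglycans 7 had a positive difference from E10 to E11, with a median of 0.68 that ran from 0.57 to 0.75 when single arrays were left out, and 0 passed. Of these 8 genes, 3 were detected on each E10 array. Of 14 measured Notch genes 11 had a positive difference (median 0.13) and 0 passed. Of 18 measured imprinted growth genes 13 had a negative difference (median -0.09), with 0 calls. An unadjusted p under 0.05 was found for 1 proteoglycan gene, which was higher. Such a p was found for 2 Notch genes higher and 1 lower, and for 3 imprinted genes higher and 1 lower. Over all genes the share was 17.3% in either direction. With median scaling 7 of the 8 proteoglycan genes and 5 of the 14 Notch genes were positive.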
